A study of Mus musculus with 3 samples.

Results

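The 10 genes described here encode proteins of the neuronal cytoskeleton (Tubb3, Map2, Dcx, Stmn2, Nefl, Nefm), of the growth cone (Gap43) and of synaptic vesicle release (Snap25, Syt1), together with Neurod1, a transcription factor of neuronal differentiation. They were chosen by name from the gene table, 10 of its 55487 genes, with earlier results of these data known. Each name matched 1 protein-coding gene. All 10 had at least 10 counts in at least 1 library and were among the 17655 genes used for ratios. RNA was measured in embryoid bodies (EBs), the aggregates in which ES cells begin to form lineages, grown without LIF from wild-type mouse ES cells of the line E14K. The 3 libraries were C2 ceramide day 4, from EBs given 30 μM of this cell-permeable ceramide from the start of day 3, DMSO day 4, from EBs given the solvent over the same time, and DMSO day 3. Each condition had 1 library and every library came from the same ES cell line, so the conditions were compared by size alone, without p-values. The comparison of C2 ceramide with DMSO on day 4 asks how these genes stood after treatment, and the comparisons with DMSO day 3 ask how they stood before it.

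In neurons, tubulin dimers form microtubules, which MAP2 binds in dendrites, doublecortin binds in migrating young cells and stathmins take apart, while neurofilaments form a further scaffold in axons. At the synapse, SNAP-25 forms a SNARE bundle with syntaxin and synaptobrevin, and synaptotagmin 1 is the calcium sensor that triggers fusion of the vesicle. Most of these genes are used as markers of postmitotic neurons, and several are held off by the repressor REST in cells that are not neurons. NEUROD1 belongs to the basic helix-loop-helix (bHLH) factors, which bind the letters CANNTG, called an E-box.

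Levels are given in TPM, a unit that corrects for transcript length, with the estimated count of reads behind each. Below, the day 4 ratio is C2 ceramide day 4 over DMSO day 4, the DMSO ratio is DMSO day 4 over DMSO day 3, and the ratio to day 3 is C2 ceramide day 4 over DMSO day 3, all as log2 of TPM unless counts are named. Genes above 2-fold are called higher, and genes under 0.5-fold lower. A range in brackets after a ratio is its 95% counting interval, which covers counting error only, since PCR copies of 1 molecule are counted separately and no second culture was measured. Total counts lay between 33619197 and 35290094, and the median log2 ratio over all genes lay between −0.03 and 0.05 in the 3 comparisons. In bulk RNA, fewer cells of a type and less RNA per cell cannot be told apart.

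By the day 4 ratio, 6 of the 10 genes were higher, namely Tubb3, Nefm, Gap43, Snap25, Syt1 and Neurod1. Of all genes used, 9.97% were higher in this comparison. The 10 were chosen with earlier results of these data known, so the shares set beside theirs describe them and test nothing. Dcx was called lower, as were 12.3% of all genes used, and Stmn2, Nefl and Map2 lay within 2-fold. The median log2 ratio of the 10 was 1.66, against −0.03 over all genes. The share of all genes called higher varied with level. It was 25.1% of genes with a mean below 1 TPM, where 2 of 3 members were higher (Syt1 and Neurod1, not Dcx). From 1 to below 10 TPM it was 9.52%, with 3 of 4 members higher (Tubb3, Nefm and Snap25, not Map2). From 10 to below 100 TPM it was 2.23%, with 1 of 3 members higher (Gap43, not Stmn2 or Nefl). Between the 2 DMSO libraries, day 4 over day 3, Gap43, Snap25, Syt1 and Neurod1 were lower (4 of 10, against 9.45% of all genes) and Dcx was higher (1 of 10, against 12.8%). Both comparisons use the DMSO day 4 library, so their values for a gene are not independent. C2 ceramide day 4 was also set against DMSO day 3, where treatment and time differ together. There, Tubb3 and Gap43 were higher (2 of 10, against 11.2% of all genes) and 0 of 10 were lower (against 9.39%), with a median log2 ratio of 0.31.

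**Figure D1:**
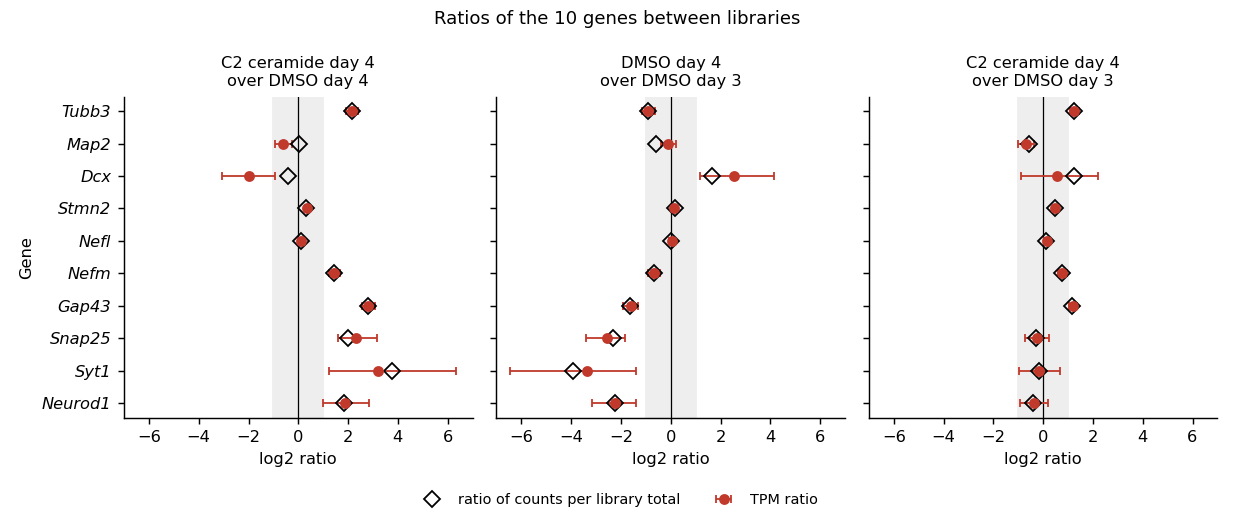
Ratios of the 10 genes in the 3 comparisons. The horizontal axis is the log2 ratio, red points are TPM ratios with 95% counting intervals, open diamonds are ratios of counts per library total, and the grey band marks less than 2-fold. In the left panel 6 genes lie right of the band and Dcx left of it by TPM but not by counts, and in the right panel only Tubb3 and Gap43 have TPM ratios outside it.

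The DMSO day 4 library had the lowest TPM of the 3 for the same 6 genes. C2 ceramide day 4 had the highest for Tubb3, Stmn2, Nefl, Nefm and Gap43, DMSO day 3 for Map2, Snap25, Syt1 and Neurod1, and DMSO day 4 for Dcx. Summed TPM over the 10 genes was 128 with C2 ceramide, 73.5 on DMSO day 4 and 84.1 on DMSO day 3. Stmn2 and Nefl made up 57.6% of that sum with C2 ceramide, 82.9% on DMSO day 4 and 66.7% on DMSO day 3. Set against all genes used, Stmn2 in the C2 ceramide library exceeded 83.6% of them, Gap43 73.1%, Tubb3 64.6% and Syt1 10.1%.

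**Figure D2:**
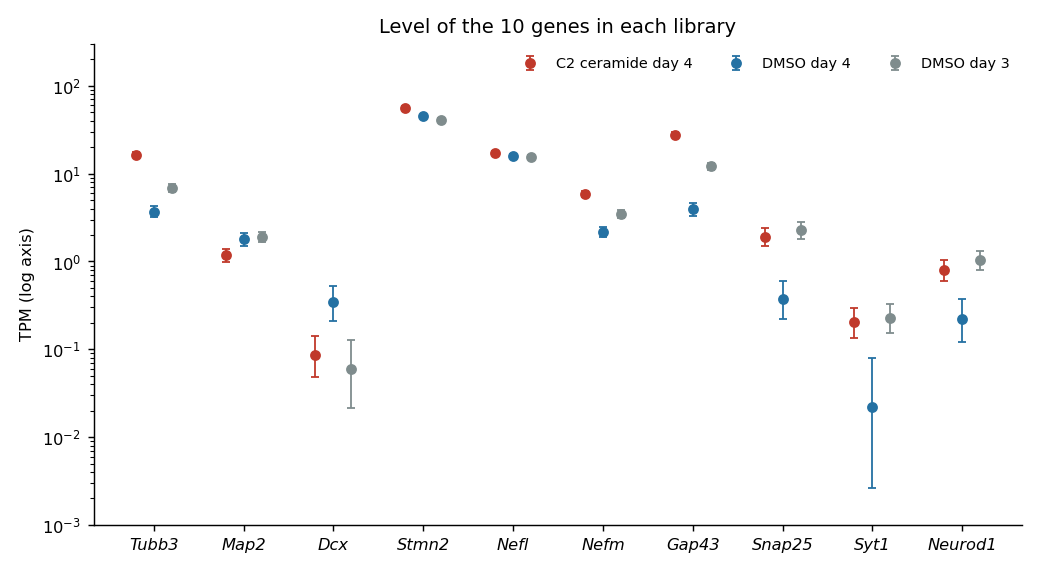
Level of each of the 10 genes in C2 ceramide day 4 (red), DMSO day 4 (blue) and DMSO day 3 (grey), in TPM on a log axis. Each point is 1 library and the bar is the exact Poisson 95% interval of its count. Stmn2 is highest in all 3 libraries at 40.7 to 56.7 TPM, and the blue point is the lowest of the 3 for 6 genes.

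In order of TPM, the C2 ceramide library read Stmn2, Gap43, Nefl, Tubb3, Nefm, Snap25, Map2, Neurod1, Syt1 and Dcx. Counting intervals of neighbours overlapped there for Nefl and Tubb3, for Map2 and Neurod1, and for Syt1 and Dcx. On DMSO day 4 the order was Stmn2, Nefl, Gap43, Tubb3, Nefm, Map2, Snap25, Dcx, Neurod1 and Syt1, with overlaps between Gap43 and Tubb3, Nefm and Map2, Snap25 and Dcx, and Dcx and Neurod1. DMSO day 3 had the order Stmn2, Nefl, Gap43, Tubb3, Nefm, Snap25, Map2, Neurod1, Syt1 and Dcx, and only Snap25 and Map2 overlapped. Gap43 thus stood above Nefl with C2 ceramide and below it in both DMSO libraries.

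Tubb3 encodes the β-tubulin found mainly in neurons, class III, whose protein is widely stained to show neurites. It lies at chr8:123411424-123422015 on the plus strand (GRCm38). It had 16.5 TPM (854 counts) with C2 ceramide, against 3.69 TPM (189 counts) on DMSO day 4 and 6.93 TPM (345 counts) on DMSO day 3. The day 4 ratio was 2.16 (1.93 to 2.40). The DMSO ratio was −0.91 (−1.17 to −0.65), within 2-fold. The ratio to day 3 was 1.25 (1.07 to 1.44), so Tubb3 stood above both DMSO libraries. Every Tubb3 count was assigned to 1 coding transcript. The gene lies inside the span of Galnt2l on the same strand, a gene named here for its position, which had 59.4, 217 and 42.9 counts in C2 ceramide day 4, DMSO day 4 and DMSO day 3.

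Tubb3 was a small part of the β-tubulin RNA in these EBs. Its share of summed TPM over 8 β-tubulin genes was 0.764% with C2 ceramide, 0.159% on DMSO day 4 and 0.299% on DMSO day 3. Tubb5, a β-tubulin gene of dividing cells, had 954 TPM with C2 ceramide, 1092 TPM on DMSO day 4 and 896 TPM on DMSO day 3. Tubb4b had 770, 853 and 1015 TPM in that order and Tubb6 336, 334 and 345 TPM. Tubb4a, which is expressed mainly in the nervous system, was the only other β-tubulin gene called higher, at 33.2 TPM with C2 ceramide, 8.71 TPM on DMSO day 4 and 18.2 TPM on DMSO day 3. For Tubb4a the day 4 ratio was 1.93 (1.79 to 2.07). Tubb2a (0.52) and Tubb2b (0.48) were within 2-fold by that ratio. Tubb1, the β-tubulin gene of platelets and megakaryocytes, had 0 counts with C2 ceramide and 14 on DMSO day 4. It was 4.69-fold lower if that 0 is set at 3 counts.

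Map2 encodes a protein that binds microtubules of dendrites and lies at chr1:66175273-66442583 on the plus strand. It had 1.17 TPM (147 counts) with C2 ceramide, 1.78 TPM (145 counts) on DMSO day 4 and 1.90 TPM (210 counts) on DMSO day 3. The day 4 ratio was −0.60 in TPM (−0.94 to −0.26), while the ratio of counts per library total was 0.01 (−0.33 to 0.35). By the day 4 ratio Map2 therefore had no direction that held on both scales. Its DMSO ratio was −0.09 (−0.41 to 0.22) in TPM and −0.60 (−0.91 to −0.28) in counts per library total, and its ratio to day 3 was −0.69 (−1.01 to −0.38) in TPM and −0.58 (−0.90 to −0.27) in counts per library total, below 0 on both scales and within 2-fold. At a threshold of 1.5-fold in TPM it would count as lower on day 4, as would 19.5% of all genes used, and against DMSO day 3, as would 15.7%. The gap between scales went with 1 short transcript of 546 bases, Map2-218, which held 0.762 of the 1.78 TPM on DMSO day 4 with 5.83 counts and had 0 in the other libraries. Most counts, 110, 100 and 181 in C2 ceramide day 4, DMSO day 4 and DMSO day 3, fell on Map2-207, whose coding length is 1494 bases. Map2-206, of the same coding length, had 26.6 counts on DMSO day 3 and 0 in the other libraries. Map2-205, with a coding length of 1401 bases, had 35.2 counts with C2 ceramide, 20.7 on DMSO day 4 and 0 on DMSO day 3. Which short form of the protein each encodes was not tested. Map2-204, with a coding length of 5484 bases as in the long forms of mature dendrites, had 0 counts with C2 ceramide, 17.1 on DMSO day 4 and 0 on DMSO day 3.

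Among 9 genes of microtubule-associated proteins, 2 were higher and none was lower by the day 4 ratio, against 9.97% and 12.3% of all genes. Map1a, whose protein binds microtubules of mature neurons, had 1.93 TPM with C2 ceramide, 0.200 TPM on DMSO day 4 and 0.319 TPM on DMSO day 3. Map1a had a day 4 ratio of 3.27 in TPM and 1.58 in counts per library total. Map6, which encodes a protein that stabilises microtubules against cold, had 2.59, 0.606 and 1.53 TPM in C2 ceramide day 4, DMSO day 4 and DMSO day 3, a day 4 ratio of 2.10 (1.68 to 2.54). Mapt, the gene of tau, had 42, 24 and 21 counts in the same order and a day 4 ratio of 0.41, within 2-fold.

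Dcx, at chrX:143855842-143933311 on the minus strand, encodes doublecortin, a microtubule protein of migrating young neurons. It was near the limit of detection with 0.086 TPM (15 counts) under C2 ceramide, 0.342 TPM (20 counts) on DMSO day 4 and 0.059 TPM (6 counts) on DMSO day 3. The day 4 ratio was −1.99 (−3.06 to −0.95) in TPM, but −0.42 (−1.49 to 0.62) in counts per library total. As with Map2, 1 short transcript was seen on DMSO day 4 alone: Dcx-204, of 1333 bases, held 0.298 of the 0.342 TPM on DMSO day 4 with 9.72 counts and had 0 in both other libraries. The call of lower for Dcx thus holds in TPM and not in counts. By the DMSO ratio Dcx was higher on both scales, at 2.54 (1.17 to 4.14) in TPM and 1.68 (0.31 to 3.28) in counts per library total, and its ratio to day 3 was 0.54 (−0.90 to 2.20) in TPM and 1.25 (−0.20 to 2.91) in counts per library total. On the count scale Dcx would thus join Tubb3 and Gap43 as higher against DMSO day 3, with an interval that includes 0. Dclk1, a doublecortin-like kinase gene with counts far above those of Dcx, was lower with C2 ceramide on both scales, at 113 counts with C2 ceramide, 381 on DMSO day 4 and 159 on DMSO day 3. Its day 4 ratio was −1.50 (−1.82 to −1.19) and its ratio of counts per library total was −1.76. Dclk3 had 0, 13 and 0 counts in that order, 4.36-fold lower with C2 ceramide if the C2 ceramide count is set at 3. Dclk2 lay within 2-fold.

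**Figure D3:**
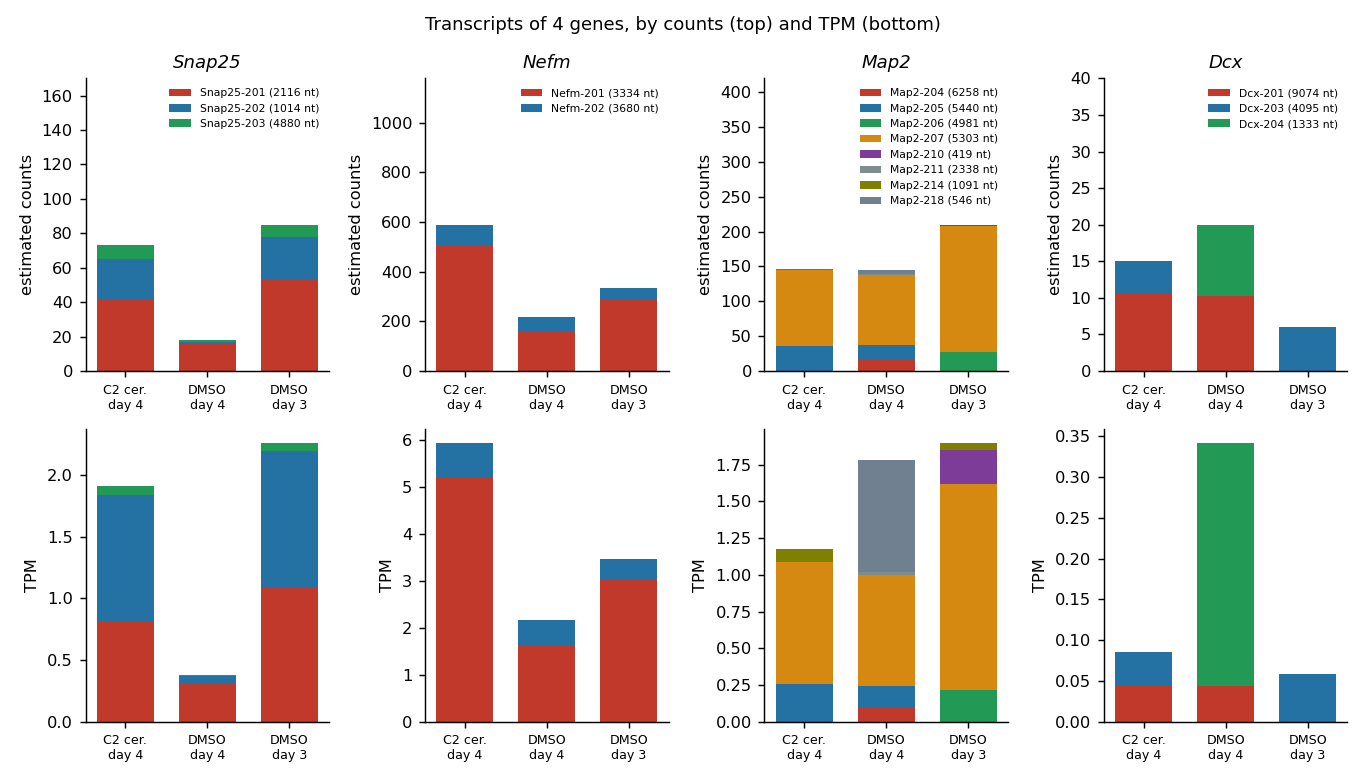
Transcripts of Snap25, Nefm, Map2 and Dcx with at least 1 count over the 3 libraries, as stacked estimated counts (top) and stacked TPM (bottom) in C2 ceramide day 4, DMSO day 4 and DMSO day 3. For Map2 and Dcx the short transcripts Map2-218 and Dcx-204 take few counts but 0.762 and 0.298 TPM on DMSO day 4, and for Snap25 the bars of DMSO day 4 are the lowest on both scales.

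Stmn2, at chr3:8509360-8561606 on the plus strand, encodes stathmin 2 (SCG10), a neuronal protein that destabilises microtubules in growth cones. It was the most abundant of the 10 genes, with 56.7 TPM (2954 counts) under C2 ceramide, 44.9 TPM (2386 counts) on DMSO day 4 and 40.7 TPM (2008 counts) on DMSO day 3. Stmn2 had a day 4 ratio of 0.34 (0.26 to 0.41), past counting error but within 2-fold, a DMSO ratio of 0.14 (0.05 to 0.23) and a ratio to day 3 of 0.48 (0.39 to 0.56). Stmn2 thus led the 10 genes in all 3 libraries, before and after treatment. Its coding transcript held 98.6% to 99.7% of its counts.

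The other stathmin genes spanned a wide range of levels. Stmn1, the stathmin of dividing cells, had 567 TPM with C2 ceramide, 686 TPM on DMSO day 4 and 502 TPM on DMSO day 3, and Stmn2 made up 8.48%, 6.01% and 7.18% of the summed stathmin TPM in the same order. Stmn3, a neuronal stathmin gene, was called higher, with 42.9 TPM (1171 counts) under C2 ceramide, 15.0 TPM (405 counts) on DMSO day 4 and 23.7 TPM (622 counts) on DMSO day 3. The day 4 ratio of Stmn3 was 1.51 (1.35 to 1.68). Stmn4 had 28, 28 and 17 counts and a day 4 ratio of 0.19.

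Nefl and Nefm encode the light and medium neurofilament subunits and overlap on chr14. Nefl spans chr14:68083863-68089095 on the plus strand, and Nefm spans chr14:68082590-68124846 on the minus strand. SMART-Seq v4 cDNA does not keep strand, so reads from the stretch they share cannot be told apart by strand. Nefl had 17.0 TPM (1527 counts) with C2 ceramide, 16.0 TPM (1424 counts) on DMSO day 4 and 15.4 TPM (1337 counts) on DMSO day 3. Its day 4 ratio was 0.09 (−0.01 to 0.20), and the DMSO ratio was 0.06 (−0.05 to 0.17). Both intervals include 0, so a difference in Nefl on day 4 or between the DMSO days was not detectable at this depth. The ratio to day 3 was 0.15 (0.04 to 0.25), far within 2-fold.

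Nefm had 5.92 TPM (589 counts) with C2 ceramide, 2.17 TPM (216 counts) on DMSO day 4 and 3.46 TPM (333 counts) on DMSO day 3. Its day 4 ratio was 1.45 (1.22 to 1.68), its DMSO ratio −0.68 (−0.93 to −0.43) and its ratio to day 3 0.77 (0.58 to 0.97). The higher level was in Nefm-201, the transcript that ends before Nefl, with 509 counts under C2 ceramide, 157 on DMSO day 4 and 286 on DMSO day 3 and a day 4 ratio of 1.68 (1.42 to 1.95). Nefm-202, which reaches across Nefl, had 79.8, 58.9 and 46.8 counts in that order and a ratio of 0.43 (−0.07 to 0.94). Of the counts of both genes together, Nefm held 27.8% with C2 ceramide, 13.2% on DMSO day 4 and 19.9% on DMSO day 3.

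By the day 4 ratio, 9.97% of all genes used were higher and 12.3% lower. Of the 7 intermediate filament genes of neural cells and their precursors, 3 were higher with C2 ceramide on day 4 and none was lower. Beside Nefm these were Nefh, the heavy neurofilament gene, and Prph, which encodes peripherin, a filament protein of peripheral neurons. Nefh had 332 counts with C2 ceramide, 100 on DMSO day 4 and 319 on DMSO day 3, and its day 4 ratio was 1.72 (1.39 to 2.06). Prph had 95, 15 and 43 counts in that order, and its ratio was 3.05 (2.26 to 3.94). Ina, the gene of α-internexin, was the most abundant of the neuronal filament genes at 27.1, 21.1 and 27.0 TPM and lay within 2-fold. Vim, the vimentin gene of mesenchymal and progenitor cells, had 37.0 TPM with C2 ceramide and 58.2 TPM on DMSO day 4, a ratio of −0.65, against 13.6 TPM on DMSO day 3.

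Gap43, at chr16:42248442-42340651 on the minus strand, encodes a membrane protein of growing axon tips. It had the largest difference of the members with at least 100 counts in each library. Its level was 27.7 TPM (974 counts) with C2 ceramide, 3.97 TPM (138 counts) on DMSO day 4 and 12.1 TPM (411 counts) on DMSO day 3. Gap43 had a day 4 ratio of 2.80 (2.54 to 3.07), or 6.97-fold. The DMSO ratio was −1.61 (−1.90 to −1.33), and the ratio to day 3 was 1.19 (1.02 to 1.36). Gap43 was thus lower at DMSO day 4 than a day earlier, and above both with C2 ceramide. Genes of proteins with a related role at the membrane were more abundant and within 2-fold on day 4: Marcksl1 had 558 TPM with C2 ceramide and 649 TPM on DMSO day 4, Basp1 113 and 115 TPM, and Marcks 31.9 and 40.8 TPM.

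Snap25, at chr2:136713453-136782428 on the plus strand, encodes the plasma membrane SNARE of synapses and endocrine cells. It had 1.91 TPM (73 counts) with C2 ceramide, 0.378 TPM (18 counts) on DMSO day 4 and 2.26 TPM (85 counts) on DMSO day 3. Snap25 had a day 4 ratio of 2.34 (1.58 to 3.17) and a DMSO ratio of −2.58 (−3.40 to −1.83). The ratio to day 3 was −0.24 (−0.71 to 0.23), an interval that includes 0. The relatives found in most cells, Snap23 at 45.1 TPM with C2 ceramide and 50.8 TPM on DMSO day 4 and Snap47 at 107 and 77.9 TPM, lay within 2-fold.

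Snap25 has a pair of alternative exons, 5a and 5b, of which each mRNA carries 1, and in the brain 5a prevails early and 5b later. They are shown because the 2 spliced coding transcripts of the gene differ in them. Exon 5a is chr2:136769743-136769860 and exon 5b is chr2:136770057-136770174, both on the plus strand of GRCm38. Each has 118 bases, and capitals mark the 31 positions at which they differ.
Snap25 exon 5a: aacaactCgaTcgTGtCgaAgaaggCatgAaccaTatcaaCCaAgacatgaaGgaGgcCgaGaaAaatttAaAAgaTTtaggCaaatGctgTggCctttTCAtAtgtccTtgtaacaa
Snap25 exon 5b: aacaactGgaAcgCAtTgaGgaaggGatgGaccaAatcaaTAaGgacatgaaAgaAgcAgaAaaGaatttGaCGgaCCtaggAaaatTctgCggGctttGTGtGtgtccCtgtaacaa
Snap25-202, which carries exon 5a, had 23.7 counts with C2 ceramide, 1.35 on DMSO day 4 and 24.5 on DMSO day 3. Snap25-201, which carries exon 5b, had 41.1, 15.6 and 53.3 counts in that order. Both were called higher, with day 4 ratios of 4.11 (1.94 to 9.92) for Snap25-202 and 1.38 (0.48 to 2.28) for Snap25-201. These intervals overlap, and the transcripts also differ at their 3′ ends, so the estimated counts do not show whether the use of the 2 exons differed. A further 8.19, 1.03 and 7.16 counts fell on Snap25-203, a transcript with a retained intron.

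Syt1, at chr10:108497650-109010982 on the minus strand, had the fewest counts of the genes called higher: 0.204 TPM (27 counts) with C2 ceramide, 0.022 TPM (2 counts) on DMSO day 4 and 0.226 TPM (29 counts) on DMSO day 3. Its ratio on day 4 was 3.21, with an interval of 1.22 to 6.33 that reflects the 2 counts. The DMSO ratio was −3.36 (−6.47 to −1.38), and the ratio to day 3 was −0.15 (−0.96 to 0.66). Of the 2 counts on DMSO day 4, 1 fell on the coding transcript and 1 on a transcript with a retained intron.

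Among the 13 synaptotagmin genes used, 4 were higher with C2 ceramide on day 4 and 1 was lower. Over all genes used, the shares were 9.97% and 12.3%. Beside Syt1 the higher genes were Syt4, which encodes a synaptotagmin of neurons and endocrine cells, at 68 counts with C2 ceramide, 6 on DMSO day 4 and 51 on DMSO day 3, Syt11 at 1376, 324 and 774 counts, and Syt12 at 27.9, 6.79 and 41.3 counts. Their day 4 ratios were 3.51 for Syt4, 2.10 for Syt11 and 2.02 for Syt12. Syt9 had 13.7 TPM with C2 ceramide and 6.98 TPM on DMSO day 4, just under 2-fold. Syt11 and Syt9 were the most abundant of the family with C2 ceramide, while on DMSO day 4 Syt13 (6.30 TPM) and Syt5 (5.49 TPM) and on DMSO day 3 Syt5 (9.53 TPM) stood above Syt11 (3.37 TPM on DMSO day 4 and 7.69 TPM on DMSO day 3). Syt15, with 0 counts under C2 ceramide and 10 on DMSO day 4, was 3.35-fold lower if that 0 is set at 3 counts.

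Neurod1, at chr2:79452521-79456751 on the minus strand, had 0.799 TPM (50 counts) with C2 ceramide, 0.220 TPM (14 counts) on DMSO day 4 and 1.03 TPM (64 counts) on DMSO day 3. Its day 4 ratio was 1.86 (0.98 to 2.83) and its DMSO ratio −2.23 (−3.18 to −1.38). The ratio to day 3 was −0.37 (−0.93 to 0.19), an interval that includes 0. Of 10 proneural bHLH genes, Neurod1 alone had at least 10 counts in any library. Neurog1, Neurog2, Neurod4 and Neurod6, named here because they had 0 counts in all 3 libraries, are each limited by that to 3 counts in any of them. Neurod1 overlaps Cerkl, a gene on the same strand that had 5.27, 0 and 1 counts in C2 ceramide day 4, DMSO day 4 and DMSO day 3 and is named for its position.

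The promoters of 5 of the 10 genes, Tubb3, Map2, Neurod1, Syt1 and Dcx, were found in RefSeq (GRCm38.p6), each from 250 bases before to 50 after the start. Those of Tubb3 and Neurod1, called higher with C2 ceramide, and of Map2, within 2-fold, are shown to set their letters side by side. Capitals mark E-boxes (CANNTG), GC boxes (GGGCGG) and CCAAT boxes (CCAAT), found on either strand and without overlap between them. The windows are chr8:123411303-123411602 (plus strand) for Tubb3, chr2:79456587-79456886 (minus strand) for Neurod1 and chr1:66175079-66175378 (plus strand) for Map2.
Tubb3 promoter: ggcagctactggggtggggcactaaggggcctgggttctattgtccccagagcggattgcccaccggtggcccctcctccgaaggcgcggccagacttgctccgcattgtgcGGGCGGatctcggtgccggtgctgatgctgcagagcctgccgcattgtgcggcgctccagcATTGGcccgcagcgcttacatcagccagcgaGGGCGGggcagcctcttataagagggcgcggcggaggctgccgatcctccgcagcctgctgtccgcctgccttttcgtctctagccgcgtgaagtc
Neurod1 promoter: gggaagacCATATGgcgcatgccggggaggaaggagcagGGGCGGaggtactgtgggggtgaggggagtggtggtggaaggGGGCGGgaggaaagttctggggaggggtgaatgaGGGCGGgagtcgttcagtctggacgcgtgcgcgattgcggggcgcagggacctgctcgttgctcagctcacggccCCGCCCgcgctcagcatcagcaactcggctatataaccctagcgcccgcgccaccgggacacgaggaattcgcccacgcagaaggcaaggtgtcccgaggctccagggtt
Map2 promoter: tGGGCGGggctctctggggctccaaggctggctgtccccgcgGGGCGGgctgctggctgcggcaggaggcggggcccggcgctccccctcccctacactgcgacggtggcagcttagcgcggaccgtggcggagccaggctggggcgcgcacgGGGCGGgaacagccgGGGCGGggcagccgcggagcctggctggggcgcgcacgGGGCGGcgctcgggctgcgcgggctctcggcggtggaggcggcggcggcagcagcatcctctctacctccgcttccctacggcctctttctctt
Tubb3 held 0 E-boxes, 2 GC boxes and 1 CCAAT box, Neurod1 held 1 E-box, with the letters CATATG, and 4 GC boxes, and Map2 held 5 GC boxes and 0 E-boxes. Of all 32851 promoter windows, 72.3% held an E-box, 35.7% a GC box and 37.4% a CCAAT box, and 3.91% held CATATG. Syt1, also called higher, had 2 windows, 1 with 3 E-boxes and 0 GC boxes and 1 with 0 E-boxes, 1 GC box and 2 CCAAT boxes, and both windows of Dcx held 1 CCAAT box alone. GC boxes thus occurred in some windows of genes called higher, not in all, and in that of Map2.

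Other genes of the same structures, from lists chosen with earlier results of these data known, were counted in the same way. By the day 4 ratio, 9.97% of all genes used were higher and 12.3% lower. Of 30 other genes of the neuronal cytoskeleton and neurite growth, 9 were higher and 2 lower by the day 4 ratio, with a median of 0.50. This list shares genes with the families above. Tubb4a, Map1a, Map6, Stmn3, Nefh and Prph among the higher, and Dclk1 among the lower, were already counted there. The 2 lower ones were Dclk1 and Dpysl5, a gene of the collapsin response mediator family, at 1317 counts with C2 ceramide, 3958 on DMSO day 4 and 1474 on DMSO day 3. Tuba1a, an α-tubulin gene of young neurons, was the most abundant at 1074, 846 and 976 TPM and lay within 2-fold. Of 33 other genes of synaptic vesicles and their release, 6 were higher and 8 lower, with a median of 0.03. Syt4, among the higher, was already counted with the synaptotagmins. Higher genes included Rims1, an active zone gene, at 132, 28 and 62 counts and Slc18a2, the vesicular monoamine transporter gene, at 46, 19 and 88 counts in C2 ceramide day 4, DMSO day 4 and DMSO day 3. Lower ones included Gad1, which makes GABA, at 26, 183 and 58 counts, with a day 4 ratio of −3.04 (−3.69 to −2.44), and Bsn and Doc2a, with ratios of −1.27 and −1.30. In counts per library total 5 genes of this list were higher and 6 lower: Rims2, Doc2a (−0.92) and Sv2b, which had 12 counts with C2 ceramide and 8 on DMSO day 4 and ratios of −2.50 in TPM and 0.58 in counts, lay within 2-fold. Sv2c, among the lower, had 0 counts with C2 ceramide and 3 on DMSO day 4, too few for a fold, which leaves 5 lower. Rims2, Sv2b and Sv2c were named after their values were seen. The cytoskeleton list thus had more genes called higher than lower on day 4, most of it lay within 2-fold, and the vesicle list had genes on both sides.

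**Figure D4:**
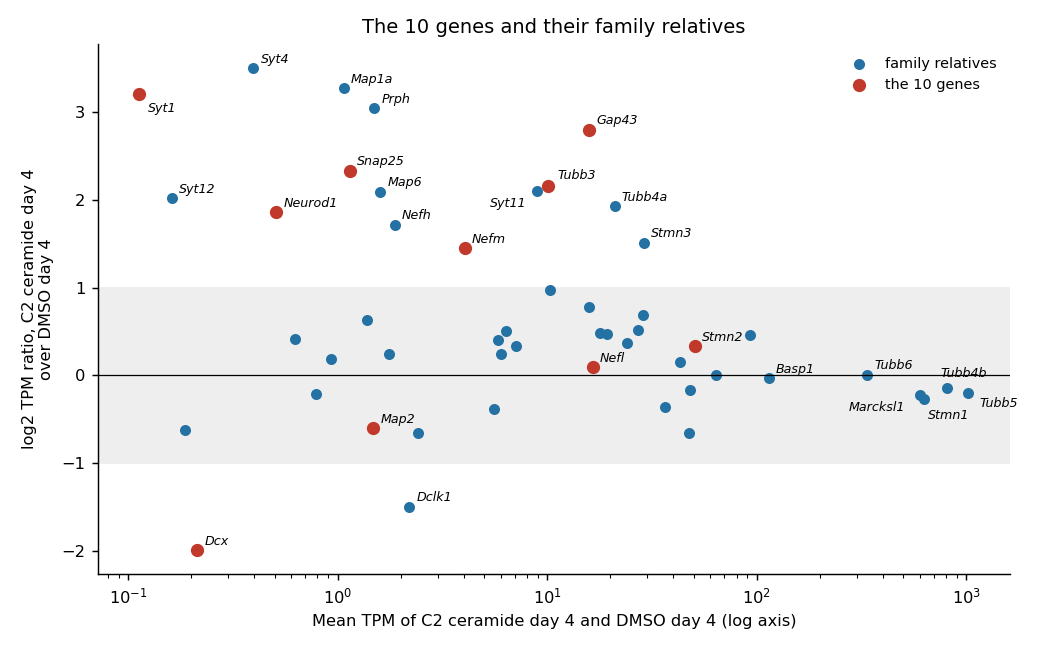
The 10 genes (red) and the relatives of their families (blue), 51 genes with counts in both libraries. The horizontal axis is the mean TPM of C2 ceramide day 4 and DMSO day 4 (log axis), the vertical axis is the log2 of the TPM ratio, C2 ceramide day 4 over DMSO day 4, and the grey band marks less than 2-fold. The most abundant relatives, such as Tubb5 (954 and 1092 TPM) and Stmn1 (567 and 686 TPM), lie inside the band.

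The label of neuronal genes was set against the defining markers of neurons, given here in full. Beside Tubb3, Map2 and Snap25, Rbfox3 (NeuN) had 27 counts with C2 ceramide, 8 on DMSO day 4 and 1 on DMSO day 3, Elavl3 14, 17 and 76, Elavl4 43, 54 and 13, and Syp, the synaptophysin gene, 283, 238 and 182. Rbfox3 was called higher with C2 ceramide on day 4, with a log2 ratio of 1.16 and an interval of −0.02 to 2.50 that includes 0, and in counts per library total its ratio was 1.75 (0.57 to 3.09), while Elavl3, Elavl4 and Syp lay within 2-fold. Rbfox3, Elavl3 and Elavl4 were below 1 TPM in every library, so RNA of these 3 neuronal markers was low in all EBs.

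Markers of other cell types differed between the same libraries. Of all genes used, 9.97% were higher and 12.3% lower by the day 4 ratio, and 12.8% were higher by the DMSO ratio. Of 12 pluripotency genes, 7 were higher and 2 lower by the day 4 ratio, and their summed TPM was 3117 with C2 ceramide, 2592 on DMSO day 4 and 3994 on DMSO day 3. Of 10 neural progenitor genes used, 5 were higher and 1 lower, with sums over the list of 257, 221 and 289 TPM. Sox2 is in this list and in that of pluripotency genes, so the sums of both lists include it. Of progenitor genes with at least 50 counts in 1 library or more, Sox1, Sox3 and Lhx2 had the largest day 4 ratios. Fabp7 was the lower gene, and Otx2 and Sox2 were the most abundant of the list. Sox1, a gene of early neuroectoderm, had 66 counts with C2 ceramide and 0 in both DMSO libraries. It was 21.9-fold higher than on DMSO day 4 if the DMSO day 4 count is set at 3. All 11 genes of the primitive streak were lower with C2 ceramide on day 4, with sums of 74.3, 1035 and 94.5 TPM, and all 11 were higher by the DMSO ratio. Of 8 endocrine genes used, 3 were higher and none lower, with sums of 13.8, 9.27 and 10.1 TPM (2 higher in counts per library total), while the hormone genes Ins1, Ins2 and Gcg and the factor genes Pax4 and Pdx1 had 0 counts in every library. Neural crest genes had sums of 19.0, 11.1 and 19.4 TPM, with 2 of 7 higher (3 in counts per library total) and none lower, and Tfap2b was at 0 throughout. Central glia genes had sums of 29.4, 22.5 and 27.1 TPM, with 1 of 8 higher and 2 lower, and S100b was at 0 throughout. The part of these cell types in the values of the 10 genes was not tested.

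**Figure D5:**
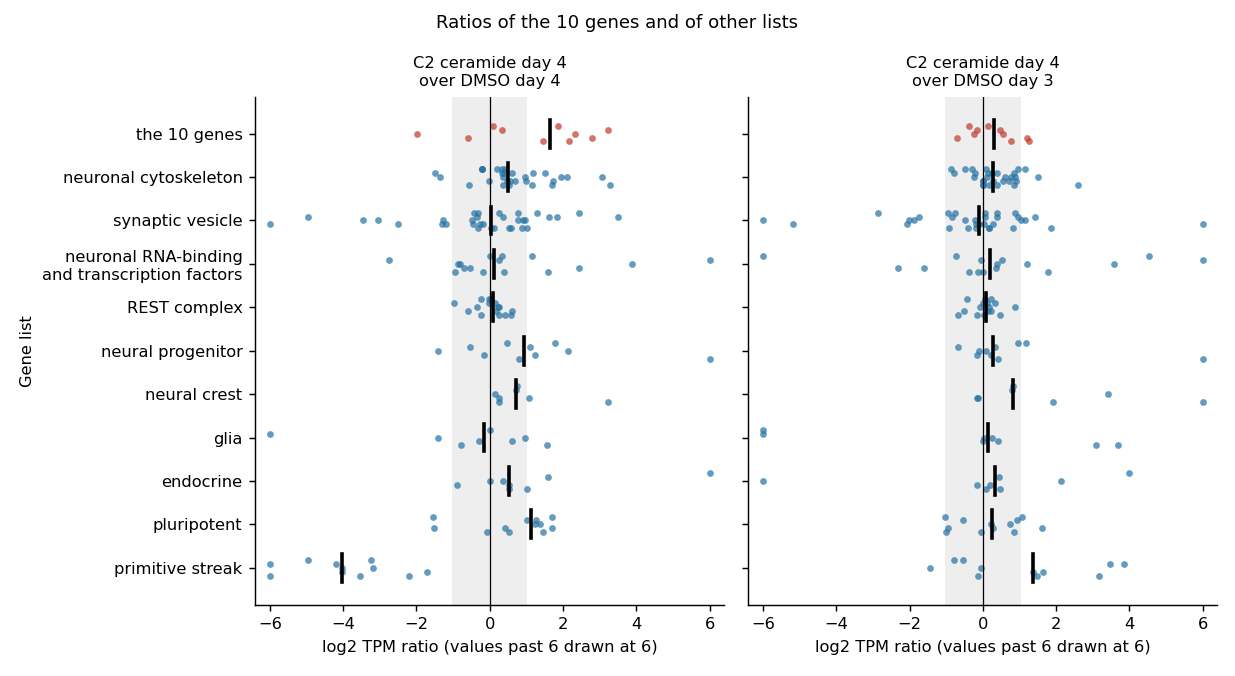
Log2 TPM ratios of the 10 genes (red) and of the genes of other lists (blue) for C2 ceramide day 4 over DMSO day 4 (left) and over DMSO day 3 (right). Each point is a gene that reached 10 counts in 1 library or more, black bars are medians, and the grey band marks less than 2-fold. The median of the 10 genes is 1.66 on the left and 0.31 on the right, and that of the primitive streak genes is −4.04 on the left and 1.36 on the right.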

How the data were processed

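EBs of mouse E14K ES cells were sampled in 3 libraries, 1 per condition. The authors removed genomic DNA with DNase I, used the SMART-Seq v4 kit for cDNA, sequenced it, and mapped reads with DRAGEN to GRCm38 with a GENCODE annotation. Deposited tables give TPM (scaled to the same total in every library) and estimated counts, which are not normalized and not always whole, for 55487 genes and 142699 transcripts.

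TPM ratios were computed in Python 3.11.15 (NumPy 2.4.6, pandas 2.3.3), with a TPM of 0 set to 0.001, for genes that reached 10 counts in 1 library or more. Exact Poisson and Clopper-Pearson 95% intervals (SciPy 1.17.1) used counts rounded to whole numbers, and a ratio's interval was shifted to the TPM ratio as if lengths were known. A fold against 0 counts sets that 0 at 3 counts and leaves out the counting error of the other count. Where a symbol had several entries, the one with the highest count was used, which was decided with the data in view. Scripts were tested on simulated data. Figures were drawn with Matplotlib 3.10.9.

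Members and lists were chosen with earlier results of these data known. All 10 members and the neuron markers are named. Other genes could be named by a rule, and not all that met it are named. From families, the rule took relatives with at least 10 counts. Of other lists, it took up to 3 genes with the largest C2 ceramide over DMSO day 4 ratio and 3 with the smallest. These were past 2-fold with at least 50 counts. It also took the 2 most abundant genes of each list. Alternatives were counts per library total, TMM factors (edgeR 4.0.16) and DESeq2 1.42.0 size factors (R 4.3.3) on rounded counts, added TPM, filters, thresholds and coding transcripts alone. Coding lengths, transcript names and exons came from a GENCODE annotation of GRCm38 older than that of the authors, and promoters from RefSeq.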

Additional observations from a re-analysis of the deposited data

How the results depend on the processing

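The numbers of the 10 genes called higher and lower were recomputed in each comparison under 10 other settings. Of these 60 values, 50 moved by no more than 1.5 times. The number higher for C2 ceramide over DMSO on day 4 was 6. It became 4 with 1 TPM added, without Syt1 and Neurod1, and 5 with at least 50 counts required, without Syt1. For C2 ceramide over DMSO on day 4, the number lower was 1 (Dcx) and became 0 with counts per library total, with TMM factors, with DESeq2 size factors, with 1 TPM added to both values and with at least 50 counts required, and 2 (Map2 and Dcx) at a 1.5-fold threshold. For DMSO day 4 over DMSO day 3, the number higher became 0 with 1 TPM added or at least 50 counts required, and the number lower became 2 (Gap43 and Snap25) with 1 TPM added. For C2 ceramide day 4 over DMSO day 3, the number higher was 2 and became 3, with Dcx (1.25, 1.24 and 1.25 in log2), with counts per library total, TMM and DESeq2 factors, and 1 gene (Map2) was lower at a 1.5-fold threshold. Map2, at −0.60 in TPM, was at 0.01, 0.04 and 0.03 in log2 on day 4 (C2 ceramide over DMSO) with counts per library total, TMM and DESeq2 factors, and Dcx moved to −0.42, −0.40 and −0.40. With 1 TPM added, Syt1 moved to 0.24 and Neurod1 to 0.56. Counts over all genes differed more: for C2 ceramide over DMSO on day 4, 1760 were higher and 2172 lower, against 443 and 617 with 1 TPM added, 3876 and 5143 without a filter, 829 and 1012 with at least 50 counts, and 2903 and 3447 at 1.5-fold. In the same order, DMSO day 4 over DMSO day 3 had 2266 and 1668, against 669 and 281, 4970 and 4003, 1156 and 676, and 3603 and 2712. C2 ceramide day 4 over DMSO day 3 had 1971 and 1658, against 407 and 257, 4165 and 4234, 939 and 628, and 3221 and 2775, and 1086 were lower with the counting interval also below 0. No paired analysis was possible because each condition had 1 library, and no library could be left out. Depth limits Syt1, Dcx and Neurod1 most, whose smallest counts were 2, 6 and 14.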

Other observations

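RNA-binding proteins and transcription factors of neurons were mixed in direction. Of 16 such genes used, 5 were higher and 1 lower on day 4, C2 ceramide over DMSO, against 9.97% and 12.3% of all genes. Ebf1, a transcription factor gene of neurons and other lineages, had 184 counts with C2 ceramide, 40 on DMSO day 4 and 163 on DMSO day 3, a log2 ratio of 2.44 on day 4. Isl1, which marks motor and sensory neurons and also early heart and endoderm cells, had 12, 250 and 8 counts in that order, a ratio of −2.75 (−3.72 to −1.92) in TPM and −4.39 (−5.36 to −3.56) in counts per library total. Elavl2 and Sox11, the 2 with the highest mean TPM of the 3 libraries, lay within 2-fold.

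REST and its co-repressors, 16 genes, were all within 2-fold in all 3 comparisons. Of all genes used, 9.97% to 12.8% were higher and 9.39% to 12.3% lower in these comparisons. Rest itself, named after its values were seen, had 42.7 TPM with C2 ceramide, 28.4 TPM on DMSO day 4 and 41.7 TPM on DMSO day 3. Ngfr, the gene of the p75 neurotrophin receptor, had 113, 12 and 29 counts in the same order, a log2 ratio of 3.23 for C2 ceramide over DMSO on day 4, and Sox9, of glia and crest among other cells, had 169, 451 and 140 counts, a ratio of −1.41.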
